A study of Danio rerio with 9 samples.

Results

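Matrix metalloproteinases (MMPs), ADAMs, ADAMTS proteinases and TIMPs were followed in zebrafish embryos exposed to a coal dust extract. A gene was a member when its lower-case symbol in the deposited tables began with mmp, adam, adamts or timp followed by a digit and it had at least 10 counts over the 9 libraries. This gave 36 members among the 32312 genes of the tables, namely 15 MMPs, 12 ADAMs, 7 ADAMTS genes and 2 TIMPs. The rule used symbols and the summed count alone, but it was chosen with earlier results of these data known. With 3 counts, adamts13 fell below the minimum. A further 21 genes of the same families with at least 10 counts carry symbols in capitals in the tables. They are described at the end, apart from the members.

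All embryos were of the TU strain, kept at 28 °C and lysed whole at 24 hours post fertilisation (hpf). The exposed ones received a methanolic coal dust extract, delivered in DMSO, at 100 mg/L from 4 hpf, and were sorted by what went wrong with them. P1 embryos had a deformed tail (3 libraries), P2 embryos a deformed yolk (2 libraries), and P3 embryos were small with an extruded yolk (3 libraries). The control was 1 library of pooled normal embryos, and the labels do not say if the solvent was added to them. RNA came from 50 pooled embryos per phenotype group, so a phenotype here is a pool picked by appearance at a single dose, and nothing says that its libraries came from separate exposures. P-values then measure the spread between these libraries, which may be technical. The control has no replicate, and its spread is taken to equal that within the phenotypes, so that comparisons with it rest on 1 library which all of them share.

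MMPs are secreted or membrane-bound zinc-dependent enzymes that cut collagens, fibronectin and other matrix proteins. ADAMs are membrane-anchored relatives, many of which release the outer part of cell-surface proteins such as Notch, growth factor precursors and cadherins, and ADAMTS enzymes are secreted and cut proteoglycans or procollagens. TIMPs block the active site of these enzymes, and TIMP2 also takes part, with the membrane-type enzyme MMP14, in turning pro-MMP2 into its active form in mammals. In a day-old zebrafish embryo these genes take part in tissue movement, fin fold and muscle boundary formation and vessel growth.

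Library totals ranged from 12008832 counts in the control to 20810487, and the members took 0.0699% to 0.078% of them. Levels are given as CPM (a gene's counts relative to its library total on a fixed scale) and use edgeR's TMM factors. Within the phenotypes the median coefficient of variation of the members was 7.25% in P1, 5.12% in P2 and 7.16% in P3, against 7.91%, 5.36% and 9.03% over all tested genes in the same groups. P3 replicate 0 stood apart from its group, with a chi-square per gene of 6.4 and 6.747 against the other P3 libraries, which differed from each other by 3.278. Results that use P3 are therefore also given without it where a call changed. All 17 whole-embryo marker genes, from neurons, heart, muscle and other tissues, were detected in every library. Summed CPM of the members was 720, 713 and 707 in P1, 773 and 767 in P2, 714, 723 and 715 in P3, and 771 in the control.

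A few genes supplied most of this RNA. The sheddase gene adam10a, the gelatinase gene mmp2 and the sheddase gene adam17a together held 49.3% of the members' CPM, and with mmp14b and adam10b the share was 63.7%. Per kilobase of gene model, averaged over the groups, mmp2 was at 47.6, adam10a at 34.2, adam10b at 23.9, mmp14b at 14.4 and adam17a at 12.1 CPM per kb. The collagenase gene mmp13a lay far lower, at 2.13 CPM per kb, and its relative mmp13b was the lowest at 0.116 CPM per kb. At the low end, mmp13b had 22 counts over all libraries, none of them in P1 replicate 1, and it did not pass the filter, so 35 members were tested.

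**Figure D1:**
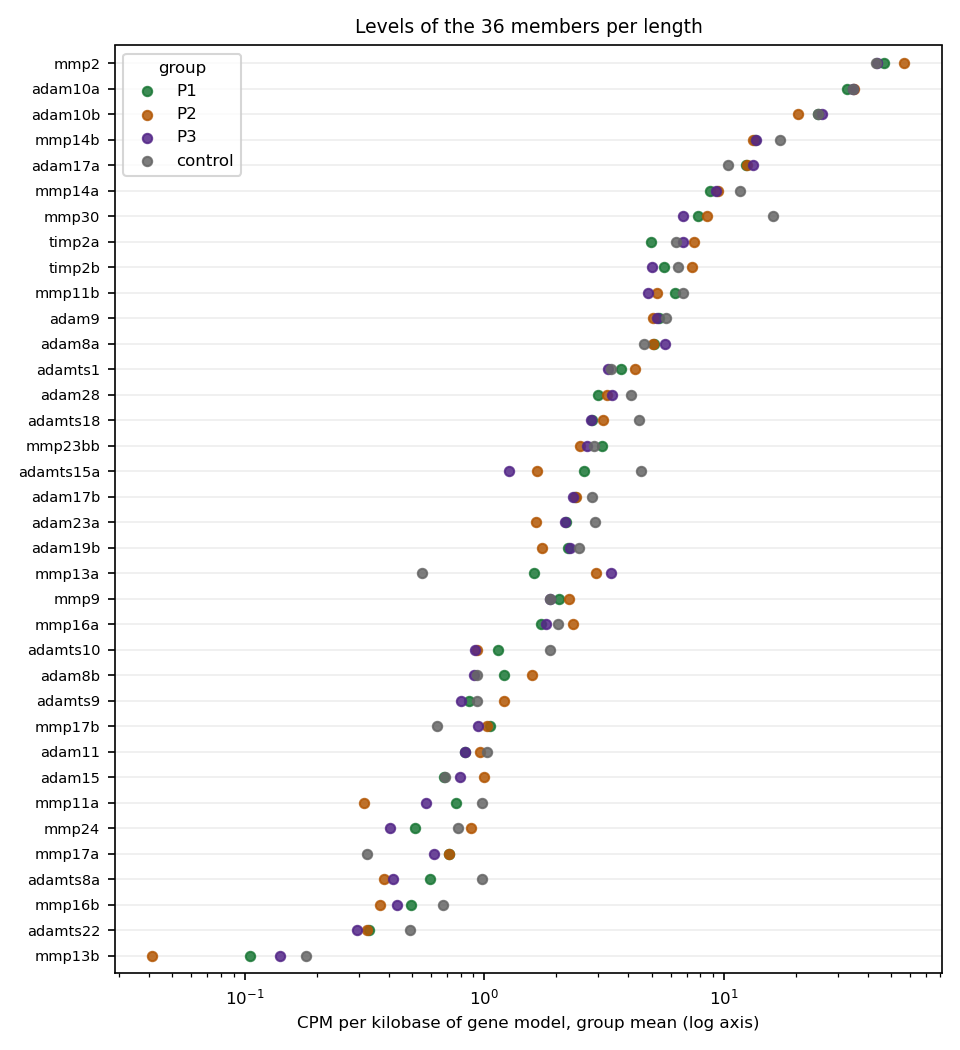
Level of each of the 36 members in CPM per kilobase of gene model on a log axis, with 1 dot per group mean (P1, P2, P3 and control), ordered by the mean over the groups. The top is held by mmp2 and adam10a, and mmp13a shows a wide gap between the control, at 0.549 CPM per kb, and P3, at 3.39 CPM per kb.

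Each phenotype was compared with the control by edgeR's quasi-likelihood F test over 19835 genes, with Benjamini-Hochberg adjustment and a threshold of 0.05. In P1, 2 members rose and 7 fell, which is 25.7% of the 35 tested beside 16.3% of all tested genes. In P2, 4 rose and 10 fell (40.0% beside 29.8%), and in P3, 2 rose and 10 fell (34.3% beside 22.6%). By direction, 5.71% of the members rose and 20% fell in P1, where 7.08% of all genes rose and 9.19% fell. In P2, 11.4% rose and 28.6% fell, with 14.2% and 15.6% over all genes, and in P3, 5.71% rose and 28.6% fell, with 10.4% and 12.2% over all genes. The median log2 fold change of the members was -0.18 in P1, -0.18 in P2 and -0.22 in P3, where that of all genes was 0.0, 0.0 and 0.01. Most changes were small, with a change of at least 2-fold in 2 of the called members in P1, in 5 in P2 and in 5 in P3. With DESeq2 the counts were 6 in P1, 7 in P2 and 7 in P3. Without P3 replicate 0, 14 members were called in P3, 3 higher and 11 lower. Shares over all genes are not given for DESeq2 or the left-out library. These counts therefore do not show whether the members still exceeded the share of all genes. In whole-embryo RNA, fewer cells of a type and less RNA per cell cannot be told apart.

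**Figure D2:**
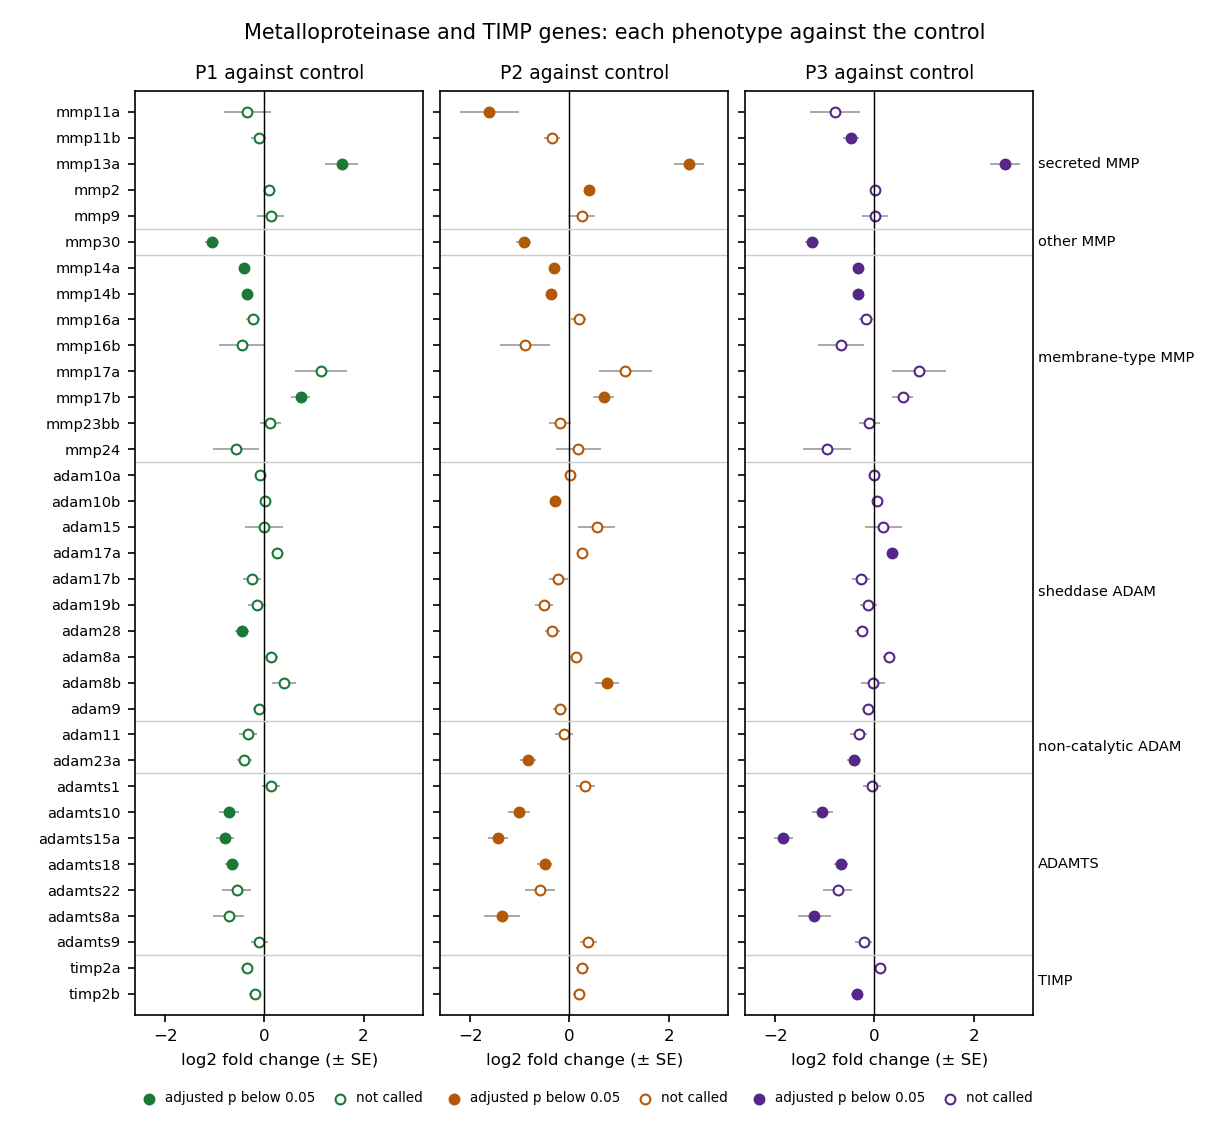
Log2 fold change of the 35 tested members in P1, P2 and P3, each against the 1 control library, from edgeR, with the standard error as a bar and filled dots for an adjusted p below 0.05. Members are grouped by subfamily, and mmp13a lies farthest to the right in each panel, at 1.56, 2.41 and 2.63. The control library is shared by the 3 panels.

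The secreted collagenase gene mmp13a showed the largest rise of any member. MMP13 cuts fibrillar collagens, and in zebrafish embryos mmp13a is known from myeloid cells. The gene, ENSDARG00000012395, lies on chromosome 10 from 39959934 to 39979810 on the plus strand (Zv9). It had 3.54, 3.05 and 3.78 CPM in P1, 6.21 and 6.3 CPM in P2 and 6.48, 7.06 and 8.11 CPM in P3, against 1.17 CPM in the control. All 8 exposed libraries lay above the control, and the P1 libraries lay below those of P2 and P3. The counts behind these levels were 61, 45 and 57 in P1, 102 and 116 in P2 and 104, 111 and 165 in P3, against 14 in the control, so the control value carries a wide counting error. The mmp13a level was 2.95-fold higher in P1 (log2 fold change 1.56 ± 0.33 SE, edgeR adjusted p = 0.00391), 5.33-fold in P2 (2.41 ± 0.31, adjusted p = 1.68e-05) and 6.18-fold in P3 (2.63 ± 0.3, adjusted p = 4.88e-06).

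Myeloid markers were counted beside mmp13a. Of 15 tested genes, 0 rose in P1 with edgeR (2 at an unadjusted p below 0.05, and 0 with DESeq2) and 5 fell, 1 rose and 6 fell in P2, and 2 rose and 5 fell in P3. Their summed CPM was 128 to 133 in P1, 122 to 123 in P2 and 135 to 148 in P3, against 174 in the control. Over all tested genes, 7.08% rose and 9.19% fell in P1, 14.2% and 15.6% in P2, and 10.4% and 12.2% in P3. The neutrophil genes lyz and mpx were among the myeloid genes that fell. The lyz level averaged 11.5 CPM in P1, 6.56 in P2 and 10.6 in P3, against 28.3 in the control, and that of mpx 3.6, 1.66 and 3.95 against 11.7. The macrophage gene mpeg1 had 5.52, 5.83 and 5.3 CPM in P1, 4.39 and 6.03 in P2 and 4.05, 4.83 and 7.57 in P3, against 3.09 in the control. Other genes of the list lay above the control. The mfap4 level was 6.39, 7.93 and 8.01 CPM in P1, 11.0 and 11.6 in P2 and 9.79, 8.77 and 10.2 in P3, against 6.6 in the control. That of cebpa was 43.5, 41.9 and 48.9 CPM in P1, 39.3 and 38.5 in P2 and 57.4, 50.3 and 54.6 in P3, against 38.2 in the control. Only for mfap4 did 1 exposed library, P1 replicate 0, lie below the control. Of 16 measured myeloid genes, il34 was at 0 in 8 libraries and the other 15 had counts in every library. The part of these cells in the mmp13a difference was not tested.

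The other secreted MMPs moved less. The gelatinase gene mmp2, whose product cuts denatured collagen and type IV collagen, had 135, 148 and 140 CPM in P1, 173 and 172 CPM in P2 and 126, 136 and 137 CPM in P3, against 132 CPM in the control. P2 alone lay clear of the other libraries. It rose there by 1.31-fold (log2 0.39 ± 0.08, adjusted p = 0.0022), while P1 (0.1 ± 0.08, adjusted p = 0.441) and P3 (0.01 ± 0.08, adjusted p = 0.939) gave no call. For the second gelatinase gene, mmp9, which is abundant in neutrophils, the levels were 6.8, 6.64 and 5.96 CPM in P1, 7.37 and 6.79 CPM in P2 and 3.87, 6.74 and 7.13 CPM in P3, against 5.93 CPM in the control. P3 replicate 0 was its lowest library, and no comparison called it.

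Stromelysin-3 is encoded by a pair of genes. The more abundant one, mmp11b, had 10.6, 10.4 and 8.94 CPM in P1, 7.92 and 8.91 in P2 and 7.61, 7.95 and 7.57 in P3, against 10.8 in the control. It fell in P3 (log2 -0.48 ± 0.16, adjusted p = 0.0351, 0.0318 to 0.153 over the alternatives), a call that was lost with DESeq2, with only P3 and the control in the fit, and without P3 replicate 2 (-0.47, adjusted p = 0.0632). The scarce mmp11a had 1.57, 1.56 and 0.596 CPM in P1, 0.365 and 0.652 in P2 and 0.873, 1.21 and 0.688 in P3, against 1.59 in the control. Its fall in P2 (log2 -1.61 ± 0.59, adjusted p = 0.0474, 0.00856 to 0.182 over the alternatives) was lost with DESeq2, with library totals alone, and without P2 replicate 0 (-1.28, adjusted p = 0.182) or P2 replicate 1 (-2.11, adjusted p = 0.0617). Between P1 and P2 it missed the threshold (1.27 ± 0.44, adjusted p = 0.0526, 0.0121 to 0.318 over the alternatives) and passed it under 4 of 12, among them leaving out P1 replicate 2 (1.59, adjusted p = 0.0121).

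The gene mmp30 fell in each phenotype. It lies on chromosome 10 at 40051610 to 40071814 on the minus strand, 71.8 kb from mmp13a, and the pair moved in opposite directions. Its levels were 12.7, 12.7 and 14.0 CPM in P1, 16.0 and 12.8 CPM in P2 and 13.0, 10.1 and 11.1 CPM in P3, against 27.2 CPM in the control. The exposed libraries overlapped among themselves and all lay well under the control. The gene was 2.07-fold lower in P1 (log2 -1.05 ± 0.14, adjusted p = 7.07e-05), 1.89-fold lower in P2 (-0.92 ± 0.15, adjusted p = 0.000164) and 2.39-fold lower in P3 (-1.26 ± 0.14, adjusted p = 5.17e-06). Between P3 and P2 it just missed the threshold (-0.34 ± 0.12, adjusted p = 0.0529, 0.00711 to 0.498 over the alternatives). It was called lower in P3 than in P2 under 5 of 12, namely with RLE size factors, library totals alone or no filter, and without P3 replicate 0 (-0.43, adjusted p = 0.00711) or P2 replicate 1 (-0.49, adjusted p = 0.0393).

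**Figure D3:**
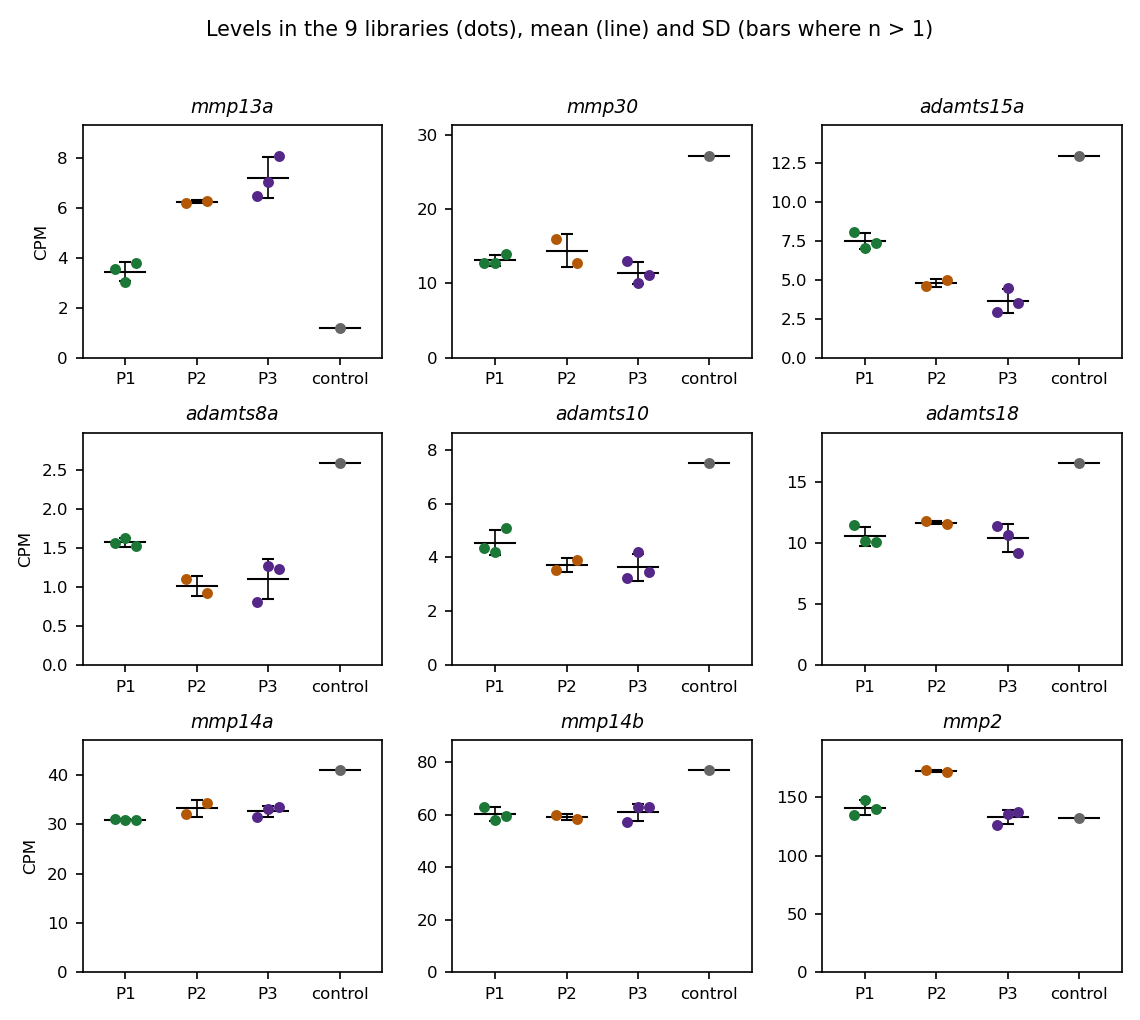
CPM of 9 members in each of the 9 libraries (dots), grouped as P1, P2, P3 and control, with the group mean as a line and the SD as a bar where a group has more than 1 library. The axes start at 0. The single control library is the lowest for mmp13a and the highest for mmp30, the 4 ADAMTS genes, mmp14a and mmp14b, while for mmp2 the P2 libraries, at 173 and 172, are the highest.

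Among the 8 membrane-type MMPs, both copies of mmp14 fell. MMP14 (MT1-MMP) degrades collagen at the cell surface and activates pro-MMP2. The mmp14a level was 31.0, 30.9 and 30.8 CPM in P1, 32.0 and 34.4 in P2 and 31.4, 33.1 and 33.4 in P3, against 40.9 in the control. It fell in P1 (log2 -0.41 ± 0.09, adjusted p = 0.00544), P2 (-0.3 ± 0.1, adjusted p = 0.0245) and P3 (-0.33 ± 0.09, adjusted p = 0.0148). The P2 call was lost with DESeq2 and without P2 replicate 0 (-0.26, adjusted p = 0.114, 0.00232 to 0.114 over the alternatives), and the P3 call with DESeq2 and with only P3 and the control in the fit (0.012 to 0.0656 over the alternatives).

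Its copy mmp14b had 63.1, 57.9 and 59.5 CPM in P1, 60.1 and 58.4 in P2 and 57.3, 62.8 and 62.9 in P3, against 76.9 in the control. No exposed library reached the control, and the phenotypes overlapped. The log2 fold changes were -0.35 ± 0.08 in P1 (adjusted p = 0.00814), -0.38 ± 0.09 in P2 (adjusted p = 0.00415) and -0.33 ± 0.08 in P3 (adjusted p = 0.00818). The ratio of mmp14a to mmp14b per kilobase was 0.625, 0.68 and 0.66 in P1, 0.678 and 0.751 in P2 and 0.698, 0.671 and 0.677 in P3, against 0.679 in the control. The control value lay within the range of each phenotype.

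The gene mmp17b, for the GPI-anchored enzyme MMP17 (MT4-MMP), went the other way. It had 7.38, 6.44 and 6.95 CPM in P1, 6.52 and 6.95 in P2 and 5.99, 5.85 and 6.74 in P3, against 4.17 in the control. It rose in P1 (log2 0.73 ± 0.2, adjusted p = 0.0205, 0.0132 to 0.102 over the alternatives) and P2 (0.69 ± 0.21, adjusted p = 0.0206, 0.00648 to 0.108), and in P3 it just missed the threshold (0.57 ± 0.21, adjusted p = 0.0529), which it passed without P3 replicate 0 (0.6, adjusted p = 0.0472, 0.0472 to 0.224 over the alternatives). DESeq2 called neither P1 nor P2, and the P2 call was also lost without P2 replicate 1 (0.63, adjusted p = 0.0837). The related mmp17a, with 7 counts in the control, had log2 fold changes of 1.14 ± 0.53 in P1, 1.13 ± 0.54 in P2 and 0.9 ± 0.54 in P3, none called. With all libraries, no comparison with the control called mmp16a, mmp16b, mmp23bb or mmp24. The scarce mmp16b had 2.24 CPM in P3 replicate 0, beside 0.763 and 0.983 in the other P3 libraries and 2.09 in the control. In P3 its log2 fold change was -0.67 ± 0.46 (adjusted p = 0.33, 0.0257 to 0.544 over the alternatives), and without P3 replicate 0 it was called lower (-1.23, adjusted p = 0.0257).

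With all 9 libraries in the edgeR fit, the calls among the ADAMTS genes against the control were falls. Of 7 members, 3 fell in P1, 4 in P2 and 4 in P3, beside 9.19%, 15.6% and 12.2% of all tested genes. With edgeR on all 9 libraries 0 rose in each (0, 1 and 0 at an unadjusted p below 0.05), and DESeq2 called 0 higher. With only P2 and the control in the fit, adamts1 (log2 0.32) and adamts9 (0.37) were called higher in P2. Their median log2 fold change was -0.65 in P1, -0.59 in P2 and -0.74 in P3. Summed over the 7, the level was 54.1, 49.3 and 48.2 CPM in P1, 53.9 and 52.5 CPM in P2 and 39.6, 46.2 and 41.3 CPM in P3, against 66.5 CPM in the control.

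The gene adamts15a, whose product belongs with ADAMTS8 among the enzymes that cut aggrecan and versican, fell the most among them. It had 8.08, 7.05 and 7.35 CPM in P1, 4.63 and 5.0 in P2 and 2.93, 4.51 and 3.49 in P3, against 13.0 in the control. No library of P1 overlapped those of P2 or P3, and all were below the control. The level was 1.73-fold lower in P1 (log2 -0.79 ± 0.18, adjusted p = 0.00518), 2.7-fold lower in P2 (-1.43 ± 0.2, adjusted p = 3.19e-05) and 3.58-fold lower in P3 (-1.84 ± 0.19, adjusted p = 1.83e-06).

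Its neighbour adamts8a lies head to head with it on chromosome 5. The adamts8a model ends its span at 31815987 on the minus strand and the adamts15a model begins at 31818027 on the plus strand, with 2.04 kb between them. The adamts8a levels were 1.57, 1.63 and 1.52 CPM in P1, 1.1 and 0.923 CPM in P2 and 0.811, 1.27 and 1.23 CPM in P3, against 2.59 CPM in the control. All exposed libraries lay below the control, and those of P1 lay above P2 and P3. It fell in P2 (log2 -1.36 ± 0.36, adjusted p = 0.00851, 0.00203 to 0.077 over the alternatives) and P3 (-1.21 ± 0.33, adjusted p = 0.0137, 0.00861 to 0.107), in both cases except with DESeq2, and gave no call in P1 (-0.72 ± 0.32, adjusted p = 0.139). The ratio of adamts15a to adamts8a per kilobase was 3.33, 3.27 and 2.62 in P3, below the 4.64 of the control, while it was 4.74, 3.99 and 4.45 in P1 and 3.89 and 4.99 in P2.

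The gene adamts10, whose product binds fibrillin and which is mutated in human Weill-Marchesani syndrome, had 4.36, 4.2 and 5.1 CPM in P1, 3.53 and 3.91 in P2 and 3.24, 4.2 and 3.44 in P3, against 7.51 in the control. It fell in P1 (log2 -0.72 ± 0.2, adjusted p = 0.0213, 0.0105 to 0.115 over the alternatives and lost with DESeq2), P2 (-1.01 ± 0.22, adjusted p = 0.00218) and P3 (-1.05 ± 0.21, adjusted p = 0.00128). All exposed libraries lay under the control, and the P3 libraries overlapped those of P2. The gene adamts18, which is linked to eye malformations in humans, had 11.5, 10.2 and 10.1 CPM in P1, 11.8 and 11.6 in P2 and 11.4, 10.7 and 9.19 in P3, against 16.6 in the control. It fell in P1 (log2 -0.65 ± 0.14, adjusted p = 0.00513), P2 (-0.5 ± 0.15, adjusted p = 0.0173) and P3 (-0.68 ± 0.14, adjusted p = 0.00225). Its P2 call was lost with DESeq2, without P2 replicate 0 (-0.53, adjusted p = 0.0529) and without P2 replicate 1 (-0.5, adjusted p = 0.0642), with 0.000819 to 0.0866 over the alternatives.

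The 3 remaining ADAMTS members were not called against the control with all libraries. The versican-cutting enzymes adamts1 and adamts9 had log2 fold changes of 0.14 ± 0.18 and -0.1 ± 0.17 in P1, 0.32 ± 0.19 and 0.38 ± 0.17 in P2, and -0.05 ± 0.18 and -0.22 ± 0.17 in P3. The gene adamts22 overlaps a transcript on the opposite strand, and with the strand setting of the counting not given its values are uncertain. Its log2 fold changes were -0.56 ± 0.29 in P1, -0.59 ± 0.31 in P2 and -0.74 ± 0.29 in P3 (adjusted p = 0.0795, 0.025 to 0.271 over the alternatives), and the P3 one was called without P3 replicate 0 (-0.92, adjusted p = 0.025).

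Lists of tissue and matrix genes moved beside these falls. Of 20 tested skeletal muscle genes 14 fell in P1, 14 in P2 and 15 in P3, where 9.19%, 15.6% and 12.2% of all tested genes fell. In each phenotype 1 muscle gene rose, the differentiation factor gene myog (log2 1.32 ± 0.13 in P1, 1.52 ± 0.13 in P2 and 1.61 ± 0.13 in P3). Of 18 epidermal genes 12 fell in P1, 9 fell and 1 rose in P2, and 11 fell and 2 rose in P3. The summed muscle level was 15688 to 17878 CPM in P1, 12956 to 13081 in P2 and 11020 to 15109 in P3, against 23962 in the control. The summed epidermal level was 17522 to 18527, 17361 to 17725 and 18095 to 19068 CPM, against 24749. Among 19 tested genes for matrix proteins, the substrates of these enzymes, 11 fell in P1, 9 in P2 and 13 in P3, and 2 rose in P2. In P1 and P3 0 rose with edgeR, also at an unadjusted p below 0.05, and 0 with DESeq2. The small proteoglycan genes fmodb (log2 -2.67 ± 0.23, -3.93 ± 0.28 and -3.86 ± 0.25 in P1, P2 and P3) and dcn (-0.53 ± 0.08, -0.85 ± 0.08 and -0.68 ± 0.08) and the tenascin gene tnn (-1.04 ± 0.11, -1.61 ± 0.12 and -1.41 ± 0.11) were among them. Of 4 tested ADAMTS-like genes, which encode proteins of the same family without the catalytic part, 2 fell in P1, 1 in P2 and 2 in P3. With edgeR 0 rose in each (0 also at an unadjusted p below 0.05, and 0 with DESeq2). The largest falls were those of adamtsl7, by 1.64, 3.78 and 2.23 on the log2 scale. Neither adamtsl5 (0.48 ± 0.24, 0.26 ± 0.26 and -0.15 ± 0.25) nor adamtsl2 was called against the control. The part of these tissues in the ADAMTS and MMP differences was not tested.

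Of the 10 catalytic ADAM members, 1 was called in P1, 2 in P2 and 1 in P3, beside 16.3%, 29.8% and 22.6% of all tested genes. In P1, 1 fell and 0 rose (1 at an unadjusted p below 0.05), in P2 1 rose and 1 fell, and in P3 1 rose and 0 fell (0 at an unadjusted p below 0.05); DESeq2 gave 0 in both places where edgeR did. The median log2 fold change was -0.04, -0.08 and -0.01. The most abundant sheddase gene, adam10a, whose product makes the first ligand-induced cut in Notch, had 142, 148 and 142 CPM in P1, 155 and 154 in P2 and 157, 150 and 151 in P3, against 153 in the control. Its log2 fold changes were -0.09 ± 0.07 in P1, 0.02 ± 0.08 in P2 and 0.0 ± 0.07 in P3, and no test called it.

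Its copy adam10b had 46.6, 43.0 and 46.0 CPM in P1, 36.7 and 37.7 CPM in P2 and 47.0, 48.8 and 44.3 CPM in P3, against 45.0 CPM in the control. P2 alone lay below the rest (log2 -0.28 ± 0.1, adjusted p = 0.0394, 0.00398 to 0.129 over the alternatives), a call lost with DESeq2, with library totals alone, with no filter, with the replicate block, and without P2 replicate 0 (-0.27, adjusted p = 0.122) or P2 replicate 1 (-0.31, adjusted p = 0.0789). The ratio of adam10a to adam10b per kilobase was 1.74 and 1.68 in P2, against 1.4 in the control, and 1.25 to 1.42 in P1 and 1.26 to 1.4 in P3.

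ADAM17 (TACE) releases TNF and ligands of the EGF receptor. The gene adam17a had 69.0, 64.6 and 67.4 CPM in P1, 68.8 and 65.9 in P2 and 77.2, 71.0 and 66.7 in P3, against 56.2 in the control. All exposed libraries lay above the control, and the rise passed the threshold in P3 (log2 0.35 ± 0.09, adjusted p = 0.0113, 0.00361 to 0.0507 over the alternatives) except with only P3 and the control in the fit. P1 (0.25 ± 0.09, adjusted p = 0.07) and P2 (0.26 ± 0.1, adjusted p = 0.0505) missed it, and each passed with only that phenotype and the control in the fit (0.26, adjusted p = 0.0435, and 0.25, adjusted p = 0.00322), with 0.0435 to 0.158 and 0.00322 to 0.194 over the alternatives. In P2 adam17a also passed with library totals alone (0.27, edgeR adjusted p = 0.0497) and with no filter (0.27, adjusted p = 0.043). The copy adam17b had 5.58, 6.3 and 5.56 CPM in P1, 6.21 and 5.54 in P2 and 5.55, 6.04 and 5.51 in P3, against 6.85 in the control, with no call. The within-library ratio of adam17a to adam17b per kilobase was 5.56, 4.61 and 5.44 in P1, 4.98 and 5.35 in P2 and 6.25, 5.28 and 5.44 in P3, against 3.69 in the control.

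ADAM8 is known from leukocytes. The gene adam8b had 5.23, 4.0 and 4.84 CPM in P1, 5.48 and 6.68 in P2 and 3.37, 3.43 and 3.74 in P3, against 3.59 in the control. Its rise in P2 (log2 0.76 ± 0.25, adjusted p = 0.0261, 0.00431 to 0.147 over the alternatives) was lost with DESeq2 and without P2 replicate 1 (0.6, adjusted p = 0.147). The fall of adam28 in P1 (log2 -0.45 ± 0.14, adjusted p = 0.0398, 0.0333 to 0.174 over the alternatives) was lost with DESeq2, with the replicate block, and without P1 replicate 0 (-0.45, adjusted p = 0.062) or P1 replicate 2 (-0.41, adjusted p = 0.0979). For that gene the levels were 9.24, 10.1 and 8.74 CPM in P1, 10.4 and 9.83 in P2 and 10.5, 10.2 and 11.2 in P3, against 12.8 in the control. In the filtered edgeR fit of all 9 libraries no test called adam8a, adam9, adam15 or adam19b. In P3 adam8a passed without P3 replicate 2 (0.36, adjusted p = 0.0471, 0.0471 to 0.329 over the alternatives), and adam19b was higher in P1 than in P2 without P1 replicate 1 (0.46, adjusted p = 0.0318, 0.0318 to 0.279). The adam19b level was also called higher in P3 than in P2 with no filter (0.38, edgeR adjusted p = 0.0411). The same held with only P3 and P2 in the fit (0.38, adjusted p = 0.0499). With only P2 and the control in the fit, adam19b was called lower in P2 (-0.51).

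The products of adam11 and adam23a lack proteinase activity, and mammalian ADAM23 binds LGI proteins at nerve cell membranes. The adam23a level was 8.89, 8.27 and 8.61 CPM in P1, 6.33 and 6.46 in P2 and 8.42, 8.9 and 8.26 in P3, against 11.4 in the control. P2 lay below all other libraries, and the fall there (log2 -0.83 ± 0.16, adjusted p = 0.000768) held in each alternative, whereas P1 missed the threshold (-0.4 ± 0.15, adjusted p = 0.0688). The P3 call (-0.42 ± 0.14, adjusted p = 0.0464, 0.0408 to 0.233 over the alternatives) was lost under 6 of 10, among them leaving out P3 replicate 0 (-0.41, adjusted p = 0.0588) and P3 replicate 2 (-0.39, adjusted p = 0.0857). The pan-neuronal gene elavl3 had 241, 225 and 232 CPM in P1, 204 and 197 CPM in P2 and 198, 237 and 230 CPM in P3, against 261 CPM in the control. Of the other neural genes of the same marker list, otx2 and pax2a lay below the control in every exposed library, and sox3 lay above it. For otx2 the exposed libraries had 25.5 to 33.3 CPM (28.5 and 28.7 in P2), against 35.2 CPM in the control. For pax2a they had 21.7 to 27.8 CPM (21.7 and 24.7 in P2), against 32.3 CPM in the control. The sox3 level was 272, 263 and 262 CPM in P1, 267 and 279 CPM in P2 and 273, 274 and 281 CPM in P3, against 254 CPM in the control. The part of the neural tissue in the adam23a difference was not tested. No test called adam11.

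Genes downstream of shedding were set beside the ADAMs. Of 43 tested genes for proteins cut by ADAMs, 0 rose in P1 with edgeR (4 at an unadjusted p below 0.05, and 0 with DESeq2) and 4 fell, 7 rose and 7 fell in P2, and 3 rose and 7 fell in P3. The adhesion gene ncam1a (log2 -0.58 ± 0.1, -0.57 ± 0.1 and -0.62 ± 0.1) and the amyloid precursor gene appb (-0.26 ± 0.08, -0.29 ± 0.08 and -0.29 ± 0.08) were lower. The EGF receptor ligand gene hbegfa was higher in P2 (0.75 ± 0.13) and P3 (0.68 ± 0.12) and was not called in P1 (0.36 ± 0.13). Of 18 tested genes from a list drawn up for Notch targets, 2 rose and 1 fell in P1, 9 rose and 1 fell in P2, and 8 rose and 1 fell in P3. For both lists the shares over all tested genes were 7.08% higher and 9.19% lower in P1, 14.2% and 15.6% in P2, and 10.4% and 12.2% in P3. The target gene hey1 was at 58.7 CPM in P1, 72.4 in P2 and 71.2 in P3, against 31.6 in the control. In each phenotype the list gene that fell was hes6 (log2 -0.35 ± 0.1, -0.64 ± 0.1 and -0.45 ± 0.09). Whether each listed gene, hes6 among them, answers to Notch in these embryos was not tested. The part of the ADAMs in these differences was not tested.

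Both TIMP members differed among the phenotypes, with joint edgeR adjusted p = 0.000165 for timp2a and 0.000314 for timp2b. The timp2a level was 16.3, 14.8 and 14.6 CPM in P1, 22.5 and 23.7 CPM in P2 and 21.4, 19.1 and 21.9 CPM in P3, against 19.4 CPM in the control. The P1 libraries were the lowest and the P2 libraries the highest, and no phenotype was called against the control (log2 -0.35 ± 0.12 with adjusted p = 0.0654 in P1, 0.26 ± 0.13 with adjusted p = 0.134 in P2 and 0.11 ± 0.12 with adjusted p = 0.565 in P3), except that P1 passed without P1 replicate 0 (-0.41, adjusted p = 0.041, 0.041 to 0.195 over the alternatives). The timp2b level was 17.1, 17.3 and 15.4 CPM in P1, 21.9 and 21.6 CPM in P2 and 14.6, 15 and 14.7 CPM in P3, against 18.9 CPM in the control. Here P3 was the lowest group, and its fall against the control (log2 -0.35 ± 0.12, adjusted p = 0.0364, 0.0317 to 0.163 over the alternatives) was lost under 5 of 10, among them leaving out P3 replicate 2 (-0.35, adjusted p = 0.0577).

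Regulators outside the families were counted too. Among all tested genes, 7.08% rose and 9.19% fell in P1, 14.2% and 15.6% in P2, and 10.4% and 12.2% in P3. Of 18 tested activators and inhibitors of these enzymes, 1 rose and 5 fell in P1, 4 rose and 4 fell in P2, and 2 rose and 4 fell in P3. Plasminogen (plg), whose active form cuts pro-MMPs, was at 103 CPM in P1 and 54.0 in P2, against 156 in the control, with log2 fold changes of -0.6 ± 0.09 in P1, -1.53 ± 0.1 in P2 and -0.38 ± 0.09 in P3. The gene for the broad proteinase inhibitor alpha-2-macroglobulin-like, a2ml, fell by 0.35 in P1, 0.69 in P2 and 0.31 in P3 on the log2 scale. The gene for the MMP inducer basigin (bsg) rose in P2 (0.35 ± 0.07) and P3 (0.39 ± 0.07). A further list held genes linked to MMP gene induction. It also holds genes for inhibitors, such as nfkbiaa and nfkbiab, so it does not count inducing factors alone. Of its 30 tested genes, 3 rose and 1 fell in P1, 11 rose and 2 fell in P2, and 6 rose and 1 fell in P3. The AP-1 gene fos averaged 5.28 CPM in P1, 11.0 in P2 and 5.13 in P3, against 2.59 in the control, and junbb 24.2, 31.7 and 21.1 against 12.7.

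The phenotypes, which all have replicates, were then compared with each other. A joint F test among P1, P2 and P3 called 12 of the 35 members (34.3%, beside 28.8% of all tested genes). Between P1 and P2, 3 members were higher and 6 lower in P1 (25.7%, beside 20.5% of all genes, 10.6% higher and 9.91% lower). Between P3 and P2, 2 were higher and 7 lower in P3 (25.7%, beside 21.5%, with 11.0% higher and 10.5% lower). Between P3 and P1, 2 were higher and 2 lower in P3 (11.4%, beside 10.4%, with 6.01% higher and 4.42% lower), a share near that of all genes. These counts leaned on the 2 P2 libraries, since without P2 replicate 0 they were 6 in the joint test, 4 for P1 against P2 and 3 for P3 against P2. Without P3 replicate 0 they were 13 in the joint test, 4 for P3 against P1 and 9 for P3 against P2. Shares over all genes are not given for fits with a left-out library. Whether such shifts in the counts are particular to the members is therefore not shown.

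The collagenase gene and adamts15a had the largest called differences between P3 and P1. The mmp13a level was 1.81-fold lower in P1 than in P2 (log2 -0.85 ± 0.16, adjusted p = 0.00101) and 2.1-fold higher in P3 than in P1 (1.07 ± 0.14, adjusted p = 8.32e-05), and P3 against P2 gave no call (0.21 ± 0.14, adjusted p = 0.303). The adamts15a level was 1.56-fold higher in P1 than in P2 (0.64 ± 0.16, adjusted p = 0.00772, 0.000778 to 0.0962 over the alternatives) and 2.07-fold lower in P3 than in P1 (-1.05 ± 0.15, adjusted p = 0.000147), with no call for P3 against P2 (-0.41 ± 0.17, adjusted p = 0.103) until P3 replicate 1 was left out (-0.58, adjusted p = 0.0284, 0.0284 to 0.386 over the alternatives). Its P1 against P2 call was lost without P2 replicate 0 (0.58, adjusted p = 0.0962) or P2 replicate 1 (0.7, adjusted p = 0.056).

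**Figure D4:**
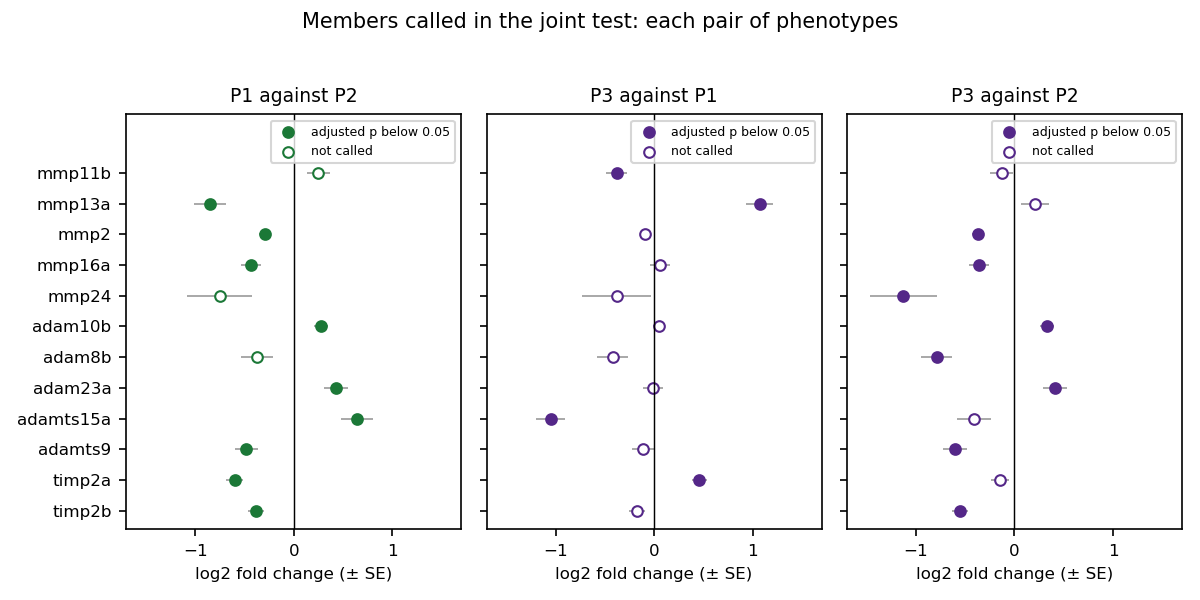
Log2 fold change with standard error for the 12 members called in the joint test among the phenotypes, for P1 against P2, P3 against P1 and P3 against P2, with filled dots for an edgeR adjusted p below 0.05. In P3 against P1, mmp13a lies at 1.07 and adamts15a at -1.05. The comparisons share groups, so the panels are not independent.

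The gelatinase gene and its inhibitors were highest in P2. The mmp2 level was 1.22-fold lower in P1 (log2 -0.29 ± 0.06, adjusted p = 0.00248) and 1.3-fold lower in P3 (-0.37 ± 0.06, adjusted p = 0.000258) than in P2. The timp2a level was 1.52-fold lower in P1 than in P2 (-0.6 ± 0.09, adjusted p = 0.00014) and 1.37-fold higher in P3 than in P1 (0.46 ± 0.08, adjusted p = 0.00141), and P3 against P2 gave -0.15 ± 0.09 (adjusted p = 0.237). For timp2b the differences were 1.31-fold lower in P1 than in P2 (-0.38 ± 0.08, adjusted p = 0.00339) and 1.47-fold lower in P3 than in P2 (-0.55 ± 0.08, adjusted p = 0.000152), with no call for P3 against P1 (-0.17 ± 0.08, adjusted p = 0.197). Each of these calls held in all alternatives run.

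Ratios within a library do not depend on scaling. Per kilobase, timp2a over timp2b was 0.908, 0.818 and 0.903 in P1, 0.986 and 1.05 in P2 and 1.41, 1.22 and 1.42 in P3, against 0.982 in the control. P1 lay below the control and P3 above it, with no overlap between phenotypes. The ratio of mmp2 to timp2a was 8.42, 10.1 and 9.74 in P1, 7.76 and 7.32 in P2 and 5.93, 7.19 and 6.31 in P3, against 6.88 in the control. Here P1 was the highest group and P3 lay on either side of the control. The ratio of mmp2 to timp2b was 7.64 to 8.79 in P1, 7.65 to 7.71 in P2 and 8.33 to 8.98 in P3, against 6.76 in the control.

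**Figure D5:**
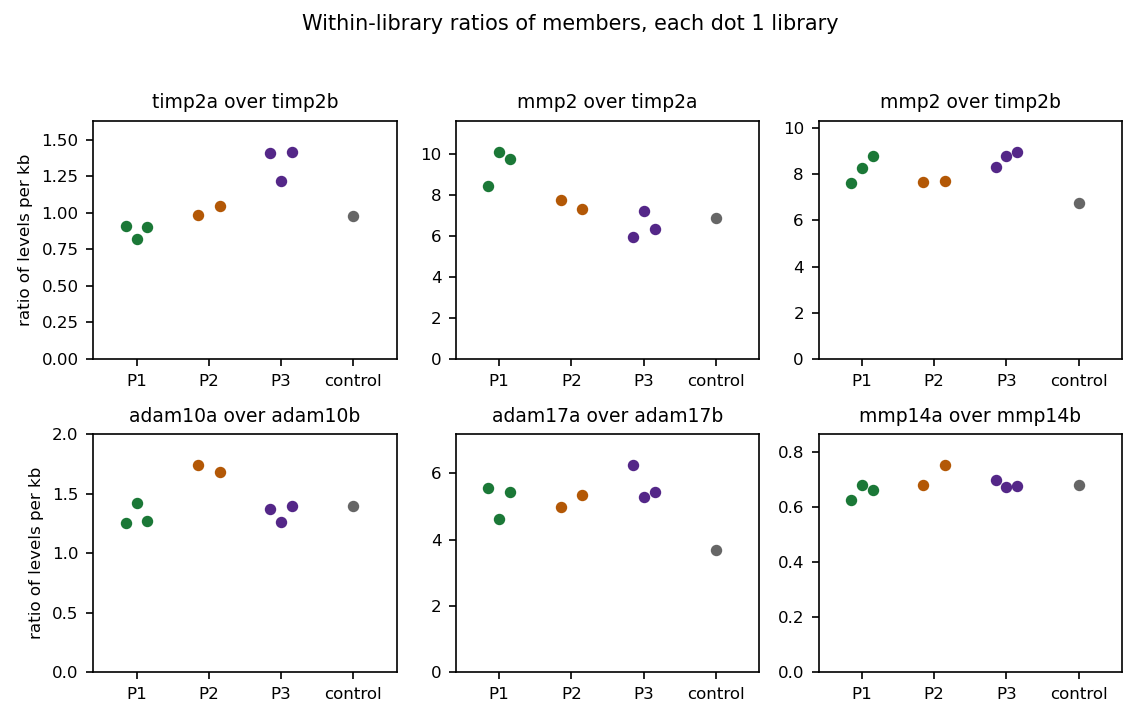
Ratios of levels per kilobase within each library (1 dot per library, axes from 0) for 6 pairs of members, grouped as P1, P2, P3 and control. For timp2a over timp2b the P3 libraries, at 1.41, 1.22 and 1.42, lie above all others, and for adam17a over adam17b the control, at 3.69, lies below all others.

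Further members were called between P2 and another phenotype, adam8b only in P3 against P2. For adam8b, P1 against P2 was not called (log2 -0.37 ± 0.16, edgeR adjusted p = 0.102). The versican-cutting adamts9 had 8.54, 9.55 and 8.28 CPM in P1, 13.5 and 11.2 CPM in P2 and 7.92, 8.65 and 7.82 CPM in P3, with 9.43 CPM in the control, and was lower in P1 than in P2 (log2 -0.48 ± 0.12, adjusted p = 0.0068) and in P3 than in P2 (-0.6 ± 0.12, adjusted p = 0.00137). Both calls were lost without P2 replicate 0 (-0.35, adjusted p = 0.147, and -0.46, adjusted p = 0.0545), the full ranges over the alternatives being 0.00138 to 0.147 and 4.25e-05 to 0.0545. For adam8b, P3 was lower than P2 (-0.79 ± 0.16, adjusted p = 0.00204, 8.68e-05 to 0.0696 over the alternatives), except without P2 replicate 1 (-0.63, adjusted p = 0.0696).

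In the opposite direction, adam10b was higher in P1 than in P2 (0.28 ± 0.07, adjusted p = 0.00852, 0.00234 to 0.105 over the alternatives) and in P3 than in P2 (0.33 ± 0.07, adjusted p = 0.00276, 0.000756 to 0.0525). Without P2 replicate 0 both calls were lost (0.26, adjusted p = 0.105, and 0.31, adjusted p = 0.0525), and the P1 call also without P2 replicate 1 (0.3, adjusted p = 0.0614). The gene adam23a was likewise higher in P1 than in P2 (0.43 ± 0.12, adjusted p = 0.0164, 0.0115 to 0.128) and in P3 than in P2 (0.41 ± 0.12, adjusted p = 0.018, 0.0169 to 0.134). Both were lost with DESeq2, without P2 replicate 0 (0.41, adjusted p = 0.117, and 0.4, adjusted p = 0.12) and without P2 replicate 1 (0.44, adjusted p = 0.0961, and 0.43, adjusted p = 0.102), and the P1 one also without P1 replicate 0 (0.4, adjusted p = 0.0558).

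Membrane-type genes were also called between P2 and another phenotype, mmp24 only in P3 against P2. For mmp24, P1 against P2 was not called (log2 -0.75 ± 0.33, edgeR adjusted p = 0.115). Nor was P2 against the control (0.18 ± 0.45, adjusted p = 0.803). The mmp16a level was 15.4, 12.5 and 14.7 CPM in P1, 20.5 and 17.8 CPM in P2 and 13.8, 14.9 and 15.7 CPM in P3, with 16.7 CPM in the control, and was lower in P1 (log2 -0.43 ± 0.1, adjusted p = 0.00771, 0.00085 to 0.145 over the alternatives) and P3 (-0.36 ± 0.1, adjusted p = 0.017, 0.0043 to 0.232) than in P2. Both were lost without P2 replicate 0 (-0.32, adjusted p = 0.145, and -0.26, adjusted p = 0.232), and the P3 one with DESeq2. This gene shares 51.0 kb with a capital-named MMP16 model on the opposite strand, and since the strand setting is not given, reads of the pair cannot be told apart. The brain-enriched mmp24 had 1.28, 0.474 and 1.06 CPM in P1, 1.46 and 1.74 CPM in P2 and 0.686, 0.89 and 0.639 CPM in P3, with 1.42 CPM in the control. It was lower in P3 than in P2 (-1.13 ± 0.34, adjusted p = 0.023, 0.00643 to 0.186 over the alternatives), a call lost with DESeq2, with the replicate block and without P2 replicate 0 (-1.24, adjusted p = 0.0757), P2 replicate 1 (-0.99, adjusted p = 0.186) or P3 replicate 2 (-1.02, adjusted p = 0.0776).

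The calls of mmp11b and adamts1 between phenotypes were the least firm. In P3, mmp11b was lower than in P1 (-0.38 ± 0.11, adjusted p = 0.0312, 0.0192 to 0.158 over the alternatives). It was lost under 6 of 13, among them leaving out P1 replicate 0 (-0.32, adjusted p = 0.142), P1 replicate 1 (-0.35, adjusted p = 0.0991), P3 replicate 1 (-0.4, adjusted p = 0.0501) or P3 replicate 2 (-0.36, adjusted p = 0.0809). The adamts1 level was 17.3, 14.6 and 13.4 CPM in P1, 16.8 and 17.6 CPM in P2 and 10.6, 14.8 and 14.5 CPM in P3, with 13.8 CPM in the control. P3 was lower than P2 (-0.37 ± 0.13, adjusted p = 0.0449, 0.00608 to 0.246 over the alternatives), and this was lost under 6 of 12, among them leaving out P3 replicate 0 (-0.24, adjusted p = 0.107), P2 replicate 0 (-0.4, adjusted p = 0.147) or P2 replicate 1 (-0.34, adjusted p = 0.246).

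Vessel markers also differed between the phenotypes beside mmp2, timp2b and adamts9. Among all tested genes, 10.6% were higher and 9.91% lower in P1 than in P2. The shares were 11.0% and 10.5% for P3 against P2 and 6.01% and 4.42% for P3 against P1. Of 18 tested endothelial genes, 12 were lower and 0 higher in P1 than in P2 (0 higher also at an unadjusted p below 0.05 and with DESeq2), and 1 was higher and 6 lower in P3 than in P2. Their summed level was 369 to 394 CPM in P1, 505 to 513 CPM in P2 and 417 to 440 CPM in P3, with 406 CPM in the control. Among 10 tested hatching gland genes, 5 were lower and 0 higher in P1 than in P2 (0 higher also at an unadjusted p below 0.05 and with DESeq2), and 7 were higher and 1, agr2, lower in P3 than in P1. In P3 against P2, 3 were lower and 0 higher (1 at an unadjusted p below 0.05, and 0 with DESeq2). The part of these cells in the differences was not tested.

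In the filtered edgeR fit of all 9 libraries, 12 members were called in none of the 7 tests. They were adam8a, adam9, adam10a, adam11, adam15, adam17b, adam19b, adamts22, mmp9, mmp16b, mmp17a and mmp23bb, with log2 fold changes against the control from -0.89 (mmp16b in P2) to 1.14 (mmp17a in P1). The deposited tables carry the authors' own adjusted p-values. At 0.05 the authors' deposited tables called 6 of the 36 members in P1, 8 in P2 and 5 in P3 (7.0%, 13.9% and 7.41% of all 32312 genes), and each of these was also called by edgeR. Those shares are not like for like, since only 26589 of the 32312 genes had a count and each member had at least 10. The lowest deposited values of the family were those of adamts15a in P3 (2.58e-10) and mmp30 in P3 (5.89e-10), in the authors' deposited table.

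The capital-named genes of the same families were lower wherever they were called against the control. Of 19 tested, 4 were lower in P1, 6 in P2 and 4 in P3 (21.1%, 31.6% and 21.1%, beside 9.19%, 15.6% and 12.2% of all tested genes), and 0 were higher with edgeR, at an unadjusted p below 0.05 or with DESeq2. They include the procollagen-processing ADAMTS3, which had 12.8, 9.96 and 9.87 CPM in P1, 10.9 and 12.4 in P2 and 9.04, 10.5 and 9.14 in P3, against 20.5 in the control (log2 -0.91 ± 0.15, -0.82 ± 0.16 and -1.11 ± 0.15). The inhibitor gene TIMP4 had 1.74, 1.83 and 1.06 CPM in P1, 1.46 and 1.9 in P2 and 1.68, 0.827 and 1.18 in P3, against 3.51 in the control (-1.17 ± 0.35, -1.05 ± 0.36 and -1.51 ± 0.36). The LGI receptor gene ADAM22, without catalytic activity, had log2 fold changes of -0.61 ± 0.12, -0.98 ± 0.13 and -0.81 ± 0.12, and MMP23B of -1.23 ± 0.38, -1.59 ± 0.42 and -1.65 ± 0.39. All exposed libraries lay below the control for ADAMTS3 and TIMP4.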

How the data were processed

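RNA of whole embryos was extracted with an RNeasy Mini kit, and poly(A) RNA was sequenced from TruSeq RNA v2 libraries, per the labels' protocols. Novoalign and the build Zv9 are named in the submitters' processing notes. How reads were counted, with or without strand and on which gene annotation, is not stated there. The 3 deposited tables hold raw counts per gene, per the file headers, and were joined into 9 libraries. The authors' deposited adjusted p is a score on a negative log10 scale, turned back into p here. The authors' log2 ratio is named as variance-corrected per the file headers. FPKM, variance-corrected count and splice columns were not used here.

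Genes were filtered with filterByExpr (minimum count 10, minimum total 15; 19835 kept), TMM-scaled and fitted with edgeR 4.0.16 (R 4.3.3, limma 3.58.1) in 1 quasi-likelihood model of all 9 libraries with 4 groups (residual degrees of freedom 5). Two-sided F tests were adjusted by Benjamini-Hochberg over all tested genes at 0.05. The SE is the size of the log2 fold change over the square root of F. Alternatives used DESeq2 1.42.0, other scalings, filters, samples and left-out libraries. The fit was tested on simulated data.

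Level per kilobase used the gene model length of the tables. A count of 3, the floor for a count of 0, is worth 0.1442 CPM at the greatest depth and 0.2498 CPM in the control library. Both values use library totals without TMM factors. On the TMM scale of the levels, the 3 counts of mmp13b were 0.147 CPM in P3 replicate 2 and 0.25 CPM in the control. Floors cover counting error only.

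The members and lists were chosen with earlier results of these data known. Members were named with all values where they were among the 6 largest called changes of a comparison with a mean of at least 1 CPM in the higher group, or on a list of well-known family genes; adam28 was named after its value was seen. From each context list up to 3 genes with the smallest p per comparison with the control were named. Further list genes are mpeg1, mfap4, cebpa, elavl3, sox3, otx2, pax2a, il34, nfkbiaa and nfkbiab, and myog and agr2 are named for a count of 1. The genes mfap4, cebpa, sox3, otx2 and pax2a were named after their values were seen. No sequence was used here.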

Additional observations from a re-analysis of the deposited data

How the results depend on the processing

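Of 57 called member and comparison pairs, 28 kept their call in each of the alternatives that could be run, 29 lost it in at least 1 and 0 changed sign; 21 were lost with DESeq2. The pairs that kept it include each call of mmp13a, mmp30, mmp2, mmp14b and timp2a. DESeq2 called 7 members for P2 against the control, 7 for P3 against the control and 5 for P3 against P2, beside 14, 12 and 9 with edgeR, and with only P3 and the control in the fit the count was 7; the cause was not tested. Leaving out 1 library at a time gave 8 to 9 called members for P1 against the control, 9 to 10 for P2, 10 to 14 for P3, 4 to 10 for P1 against P2, 3 to 4 for P3 against P1, 3 to 10 for P3 against P2 and 6 to 13 in the joint test. Where P2 was left with 1 library, that library was assumed to vary like the other groups. The control, being 1 library, could not be left out. With only P1 or only P2 and the control in the fit, more members were called than with all libraries, unlike in P3. Counts under the alternatives have no share over all genes beside them. Deviations from the group means correlated at -0.107 to 0.018 over 7 pairs of same-numbered libraries. Over 14 pairs of different number they correlated at -0.047 to 0.101. Deviations within a group cancel out, so the pairs are not independent and this check cannot settle whether replicate numbers pair the libraries. With the replicate block the counts were 8, 13 and 10 against the control, 10, 3 and 7 for P1 against P2, P3 against P1 and P3 against P2, and 12 in the joint test. Depth limits mmp13b, mmp17a, mmp13a, mmp24 and mmp11a, which had 3, 7, 14, 17 and 19 counts in the control.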
